A study of Mus musculus with 14 samples.

Results

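The cytosolic ribosomal protein genes encode the proteins of the small and large subunits of the ribosome that translates nuclear-encoded mRNA. They were taken as the RefSeq protein-coding genes of GRCm38 whose symbol starts with Rpl or Rps followed by a digit, together with Rplp0, Rplp1, Rplp2 and Rpsa, without the Rps6k kinases and without symbols of pseudogenes. This gave 89 of 21779 protein-coding genes. Of these, 31 belong to the small subunit, 43 to the large subunit and 3 to the P stalk, and 12 are paralogs or other genes that share the name.

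The study profiled mouse Th1 cells by CUT&RUN, in which a nuclease tethered by an antibody releases the DNA it binds. The wild type (WT) was C57BL/6J and the other strain was C57BL/6J-Ets1-SE-KO, here KO; its label and the series title place the altered element at the Ets1 locus. In both strains, naive CD4+ T cells from spleen were cultured on plate-bound anti-CD3 with soluble anti-CD28, 10 ng/mL of recombinant IL-12 and IL-2 at 1 ng/mL for 6 days. Each genotype had 2 libraries with antibodies to H3K27ac (histone H3 acetylated on lysine 27), CTCF and ETS1, and 1 with IgG. By their titles the 2 WT libraries of an antibody come from 1 biological replicate, split only technically, while the 2 KO libraries come from separate biological replicates, so the spread between WT libraries holds no biological variation.

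Ribosomal proteins are needed in equal amounts, and their genes are short, housekeeping-type genes that are transcribed at high rates in growing cells, among them activated T cells. Their promoters usually lack a TATA box, carry sites for factors such as the ETS family and YY1, and start transcription within a run of pyrimidines that becomes the translational control tract at the 5′ end of the mRNA. ETS factors, ETS1 among them, bind a GGAA core. H3K27ac marks active promoters and enhancers, and CTCF is an insulator and loop-anchor protein.

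The promoter sequences below are shown so that the ETS1 and CTCF ranks can be read beside the letters at these genes. The first 4 belong to members with a promoter entry whose ETS1 peaks ranked among the strongest of their libraries; Rplp0 was taken by its CTCF rank. Rpl15, Rpl37 and Rpl39l were added after the matches were seen, as the first in alphabetical order of the 5 members with the most 7-letter cores (CCGGAAG). Each is the RefSeq sequence of GRCm38.p6 in the direction of transcription, with 180 bases before the annotated start and 20 after it. Capitals mark the 6-letter ETS core CGGAAG or its reverse complement. The positions are chr7:141447471-141447670 (plus strand) for Rplp2, chr9:64173207-64173406 (plus) for Rpl4, chr13:90922942-90923141 (plus) for Rps23, chr7:45128726-45128925 (minus) for Rpl13a, chr5:115559287-115559486 (plus) for Rplp0, chr14:18270967-18271166 (minus) for Rpl15, chr15:5116433-5116632 (plus) for Rpl37 and chr16:10170048-10170247 (plus) for Rpl39l.
Rplp2: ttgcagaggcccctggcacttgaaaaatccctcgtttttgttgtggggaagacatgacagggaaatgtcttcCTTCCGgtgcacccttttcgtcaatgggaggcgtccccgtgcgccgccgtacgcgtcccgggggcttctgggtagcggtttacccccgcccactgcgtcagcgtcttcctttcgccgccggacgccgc
Rpl4: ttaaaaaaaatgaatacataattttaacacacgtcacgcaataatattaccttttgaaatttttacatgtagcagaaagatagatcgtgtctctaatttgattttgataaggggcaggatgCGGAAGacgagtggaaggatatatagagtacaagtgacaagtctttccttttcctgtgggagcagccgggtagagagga
Rps23: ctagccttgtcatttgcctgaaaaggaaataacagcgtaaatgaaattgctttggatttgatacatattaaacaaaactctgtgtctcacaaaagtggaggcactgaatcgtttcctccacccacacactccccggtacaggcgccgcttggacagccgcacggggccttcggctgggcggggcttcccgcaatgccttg
Rpl13a: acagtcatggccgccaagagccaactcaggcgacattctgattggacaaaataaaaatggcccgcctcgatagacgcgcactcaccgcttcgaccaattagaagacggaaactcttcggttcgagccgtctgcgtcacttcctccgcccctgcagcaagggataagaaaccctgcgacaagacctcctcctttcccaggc
Rplp0: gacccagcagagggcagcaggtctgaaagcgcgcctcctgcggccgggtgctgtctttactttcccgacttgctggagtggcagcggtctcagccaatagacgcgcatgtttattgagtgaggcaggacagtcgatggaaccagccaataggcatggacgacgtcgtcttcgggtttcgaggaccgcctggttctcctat
Rpl15: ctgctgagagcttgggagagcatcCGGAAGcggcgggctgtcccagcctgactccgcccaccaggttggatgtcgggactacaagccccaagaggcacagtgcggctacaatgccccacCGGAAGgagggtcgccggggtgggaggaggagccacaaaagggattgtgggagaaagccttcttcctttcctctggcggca
Rpl37: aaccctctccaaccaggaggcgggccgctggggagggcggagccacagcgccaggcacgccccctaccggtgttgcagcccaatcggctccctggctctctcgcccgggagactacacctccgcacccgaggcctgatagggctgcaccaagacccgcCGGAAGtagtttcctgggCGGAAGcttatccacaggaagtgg
Rpl39l: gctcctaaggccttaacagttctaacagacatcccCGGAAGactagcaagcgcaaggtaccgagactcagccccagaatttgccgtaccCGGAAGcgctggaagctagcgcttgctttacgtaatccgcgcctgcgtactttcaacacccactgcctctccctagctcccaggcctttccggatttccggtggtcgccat
The core was at -108 in Rplp2 and at -59 in Rpl4. It occurred at -156 and -61 in Rpl15, at -22 and -4 in Rpl37, and at -145 and -91 in Rpl39l, counted from the annotated start to the first base of the core. The 6-letter core was not in the printed windows of Rps23, Rpl13a and Rplp0. Each of these windows held the shorter GGAA, whose share in other promoters was not counted, so its presence says little. Rps23 and Rpl13a had ETS1 peaks in all 4 libraries, and Rpl39l, which had more cores than Rplp2, had no ETS1 peak in any.

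The members were short genes spread over the genome. They lay on 19 chromosomes and had a median length of 3183 bp, from 374 to 16779 bp, against 17217 bp over all genes. In total, 73 members (82.0%) were at most 5000 bp long. Another protein-coding gene ended or began within 2 kb of a gene end at 44 members (49.4%), against 32.2% of all genes and 50.3% of the genes with H3K27ac in all 4 libraries. Peaks near such members cannot be assigned to 1 of the neighbouring genes.

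The files were peak lists, 1 per library, so a gene was described by the length of sequence under peaks within 2 kb of either gene end, called its covered length here. The lists held 24581 to 28647 peaks for H3K27ac, 31368 to 40502 for CTCF and 9344 to 40705 for ETS1. The KO lists covered more sequence than the WT lists for H3K27ac (28 and 28.5 against 21.8 and 21.3 Mb) and CTCF (24.5 and 22.3 against 18.4 and 17.4 Mb), and the part of depth or of peak calling in that difference was not tested. For ETS1 the KO lists were the longest and the shortest (40705 and 9344 peaks, against 14013 and 23419 in WT). Since the WT libraries of an antibody are 1 biological replicate, no test between genotypes is given. Even counted as separate samples, 2 libraries against 2 cannot give a p under 1 in 3 in an exact two-sided permutation test. A gene was counted as higher in a genotype when both of its libraries exceeded both of the other, and the count was read against the same count over all genes. As a check of the cell label, all 6 T cell markers (Cd3e, Cd3d, Cd3g, Cd4, Lck and Cd28) had H3K27ac in all 4 libraries. So did Tbx21 and Il12rb2 of 5 Th1 markers, while Ifng had it in 1 WT library and Cxcr3 and Stat4 in none. Exactly 1 gene each had it in all 4 libraries among 5 B cell markers (Cd79a), 5 myeloid markers (Csf1r), 3 erythroid markers (Klf1) and 2 CD8 T cell markers (Cd8b1).

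H3K27ac was present at nearly all members of the core ribosome. A peak was found in all 4 libraries at 80 of 89 members (89.9%), against 42.8% of all genes. All 31 small subunit genes and 41 of 43 large subunit genes were in this set, as were all 3 P stalk genes. Of the 12 paralogs and others, 5 were in it: Rpl7l1, Rpl22l1, Rpl36al, Rps27l and Rps19bp1. No library had H3K27ac at Rpl10l, Rpl39l, Rpl32l, Rpl37rt, Rps23rg1 or Rps27rt, and Rpl3l, the muscle paralog of Rpl3, had 0.175 kb in 1 KO library only. The absent members are thus all paralogs or others, among them Rpl10l and Rpl39l, which are known from the testis.

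In KO cells, the acetylated stretch at the ribosomal protein genes was longer than in WT cells. The median covered length was 1.16 and 1.11 kb in the WT libraries and 1.77 and 1.75 kb in the KO libraries. Of 83 members with a peak, 63 (75.9%) were higher in both KO libraries, 1 (1.20%) was higher in both WT libraries and 19 overlapped. Over all genes with a peak, 49.7% were higher in KO and 4.83% in WT. The share was 53.2% among genes with H3K27ac in all 4 libraries and 59.8% among those of at most 5000 bp. With 0.1 kb added to each mean, the log2 KO/WT ratio had a median of 0.47 (1.39-fold) for the members, 0.22 for all genes with a peak and 0.26 for the short acetylated genes. The members' ratio exceeded these backgrounds, as a description without a test.

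Leaving out any 1 library, which loosens the rule for every gene, gave 68 to 73 members higher in KO (82.9% to 88.0%), against 61.9% to 67.3% of all genes. Where the lists were cut to equal numbers of peaks, 61 of 82 members (74.4%) were higher in KO, against 48.1% of all genes. Among the 40 members with a peak and no other gene end in the window, 30 were higher in KO, against 52.0% of acetylated genes of that kind.

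**Figure D1:**
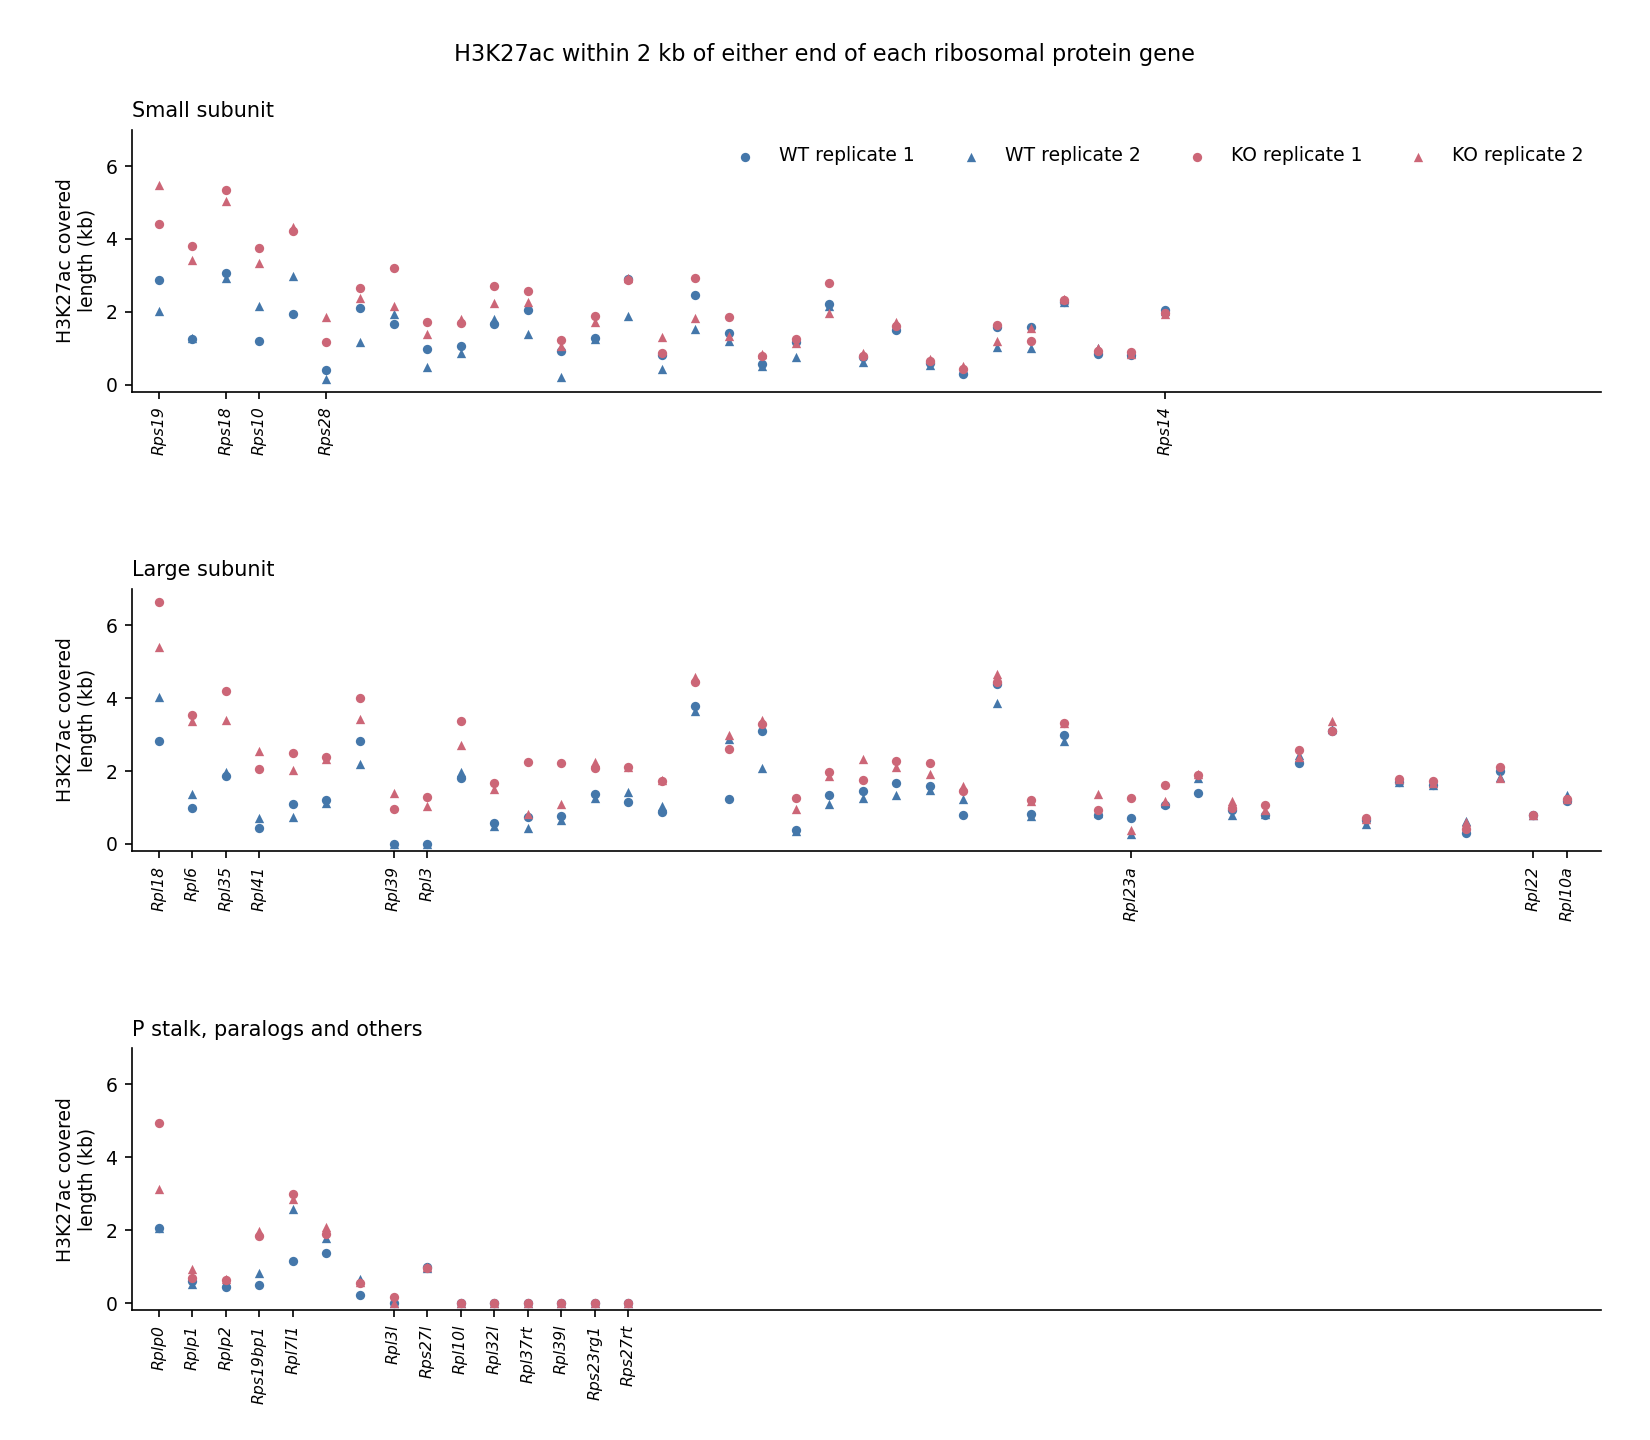
H3K27ac covered length (kb, vertical axis) within 2 kb of either end of each of the 89 genes (horizontal axis, ordered within each role by the KO minus WT difference, with some of the genes described in the text labelled); circles and triangles are the 2 libraries of WT (blue) and KO (red). Most red points lie above the blue ones, as at Rps19, Rpl18 and Rplp0, and 6 paralogs and others are at 0 in every library.

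Within the small subunit, 21 of 31 genes were higher in KO (median log2 0.47). Rps19, a protein of the subunit head whose gene is mutated in Diamond-Blackfan anaemia, had 2.86 and 2.02 kb in the WT lists and 4.42 and 5.47 kb in the KO lists (2.03-fold). Its genotypes did not overlap, and unlike many members it had no other gene end in the window. Rps18, another head protein, had 3.06 and 2.93 kb against 5.33 and 5.04 kb (1.73-fold), with B3galt4 and Vps52 as neighbours in the window. Rps10 had 1.19 and 2.15 kb against 3.75 and 3.34 kb (2.13-fold). Of these genes Rps10 was the one where the WT libraries differed most from each other, and both were below KO. Rps28, with 0.409 and 0.147 kb against 1.17 and 1.86 kb, had a 5.44-fold ratio from a short WT stretch, and Kank3 and Ndufa7 as neighbours. The exception was Rps14, with 2.04 and 2.02 kb in the WT lists and 1.98 and 1.93 kb in the KO lists, a ratio of 0.961 that lies close to 1 and turned with a flank of 1 kb (log2 0.01).

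Within the large subunit, 36 of 43 genes were higher in KO (median log2 0.54) and none was higher in WT. Rpl18 had the largest excess of all members, from 2.83 and 4.03 kb in WT to 6.64 and 5.40 kb in KO (1.76-fold), with Fam83e as a neighbour in the window. Rpl6 had 0.978 and 1.37 kb in the WT lists and 3.53 and 3.38 kb in the KO lists (2.94-fold). Rpl35, which lies by the exit of the peptide tunnel, had 1.85 and 1.96 kb in the WT lists and 4.19 and 3.40 kb in the KO lists (1.99-fold). The genotypes did not overlap at these genes. Rpl41, the gene of the smallest ribosomal protein, had 0.447 and 0.702 kb against 2.06 and 2.56 kb (4.01-fold). Like Rpl18, Rpl35 and Rpl41 had a neighbour in the window (Wdr38 and Zc3h10). Rpl3, of the peptidyl transferase centre, had no WT peak, and 1.28 and 1.04 kb in KO. Rpl39 had no WT peak either, and 0.959 and 1.40 kb in KO. Its KO peaks were among the lowest-ranked of their lists (percentiles 5.52 and 1.76), and those of Rpl3 were near the middle (50.2 and 44.7). The lists hold no signal below the threshold of the peak caller, so no ratio is given. At the other end, Rpl10a had 1.18 and 1.33 kb against 1.24 and 1.22 kb, and Rpl22 had 0.781 kb in both WT libraries against 0.783 and 0.800 kb. The genotypes thus overlapped at Rpl10a and were almost equal at Rpl22, which counts as higher in KO.

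The P stalk, formed by Rplp0, Rplp1 and Rplp2, recruits the translation factors with GTPase activity. All 3 genes were higher in KO (median log2 0.45), by very different lengths. Rplp0, the base of the stalk, had 2.07 kb in both WT libraries and 4.95 and 3.13 kb in KO (1.95-fold). Rplp1 had 0.611 and 0.518 kb against 0.687 and 0.934 kb (1.44-fold), and Rplp2 had 0.451 and 0.582 kb against 0.641 and 0.650 kb (1.25-fold). Rplp0 and Rplp2 had another gene end in the window (Gcn1 and Pidd1). Of the 6 paralogs and others with a peak, 3 were higher in KO. Rps19bp1, which encodes a binding partner of Rps19, had 0.503 and 0.819 kb in the WT lists and 1.84 and 1.98 kb in the KO lists (2.89-fold).

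Across all roles, 15 members with a WT peak were higher in KO by at least 2-fold in H3K27ac. This was 18.8% of the 80 with a WT peak, against 8.34% of all such genes and 6.23% of acetylated genes. Among them were Rps3, Rps9, Rps10, Rps19 and Rps28 of the small subunit, Rpl6, Rpl17, Rpl23, Rpl24, Rpl29, Rpl35a, Rpl38 and Rpl41 of the large subunit, and Rps19bp1. The 19 members whose genotypes overlapped included Rpl7, Rpl10a, Rpl14, Rpl19, Rpl23a, Rpl27, Rpl28, Rps3a1, Rps13, Rps16, Rps21, Rps23, Rps25, Rpsa and Rps27l. Both groups held genes of both subunits. Rpl23a shows how 1 library can part from its replicate, with 0.713 and 0.283 kb in the WT lists and 1.27 and 0.378 kb in the KO lists.

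The additional acetylation lay mostly downstream of the start, over the gene. Among the 69 members with an annotated start, the mean H3K27ac length was 0.323 kb in WT and 0.411 kb in KO over the 2 kb before the start (1.27-fold). Over the 2 kb after the start, it was 0.784 and 1.13 kb (1.44-fold). In the 2 kb beyond the far end of the gene, which overlaps the former stretch at the shortest genes, it was 0.115 and 0.243 kb (2.10-fold). The 7646 acetylated genes with a start had ratios of 1.23, 1.16 and 1.35 for the same stretches, so the ratios of members and background were closer to each other before the start than after it. In the 100 bp bin that begins 1000 bp after the start, 29.9% and 25.7% of the members' sequence was covered in WT and 52.5% and 48.9% in KO. The acetylated genes had 16.6% and 15.3% in WT and 22.6% and 20.6% in KO there. The H3K27ac peak of a member was 1114 and 1103 bp wide in WT at the median and 1710 and 1718 bp wide in KO, against 907 and 899 bp and 1102 and 1076 bp for acetylated genes. Its midpoint lay 290 and 263 bp after the start in WT and 466 and 400 bp in KO.

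**Figure D2:**
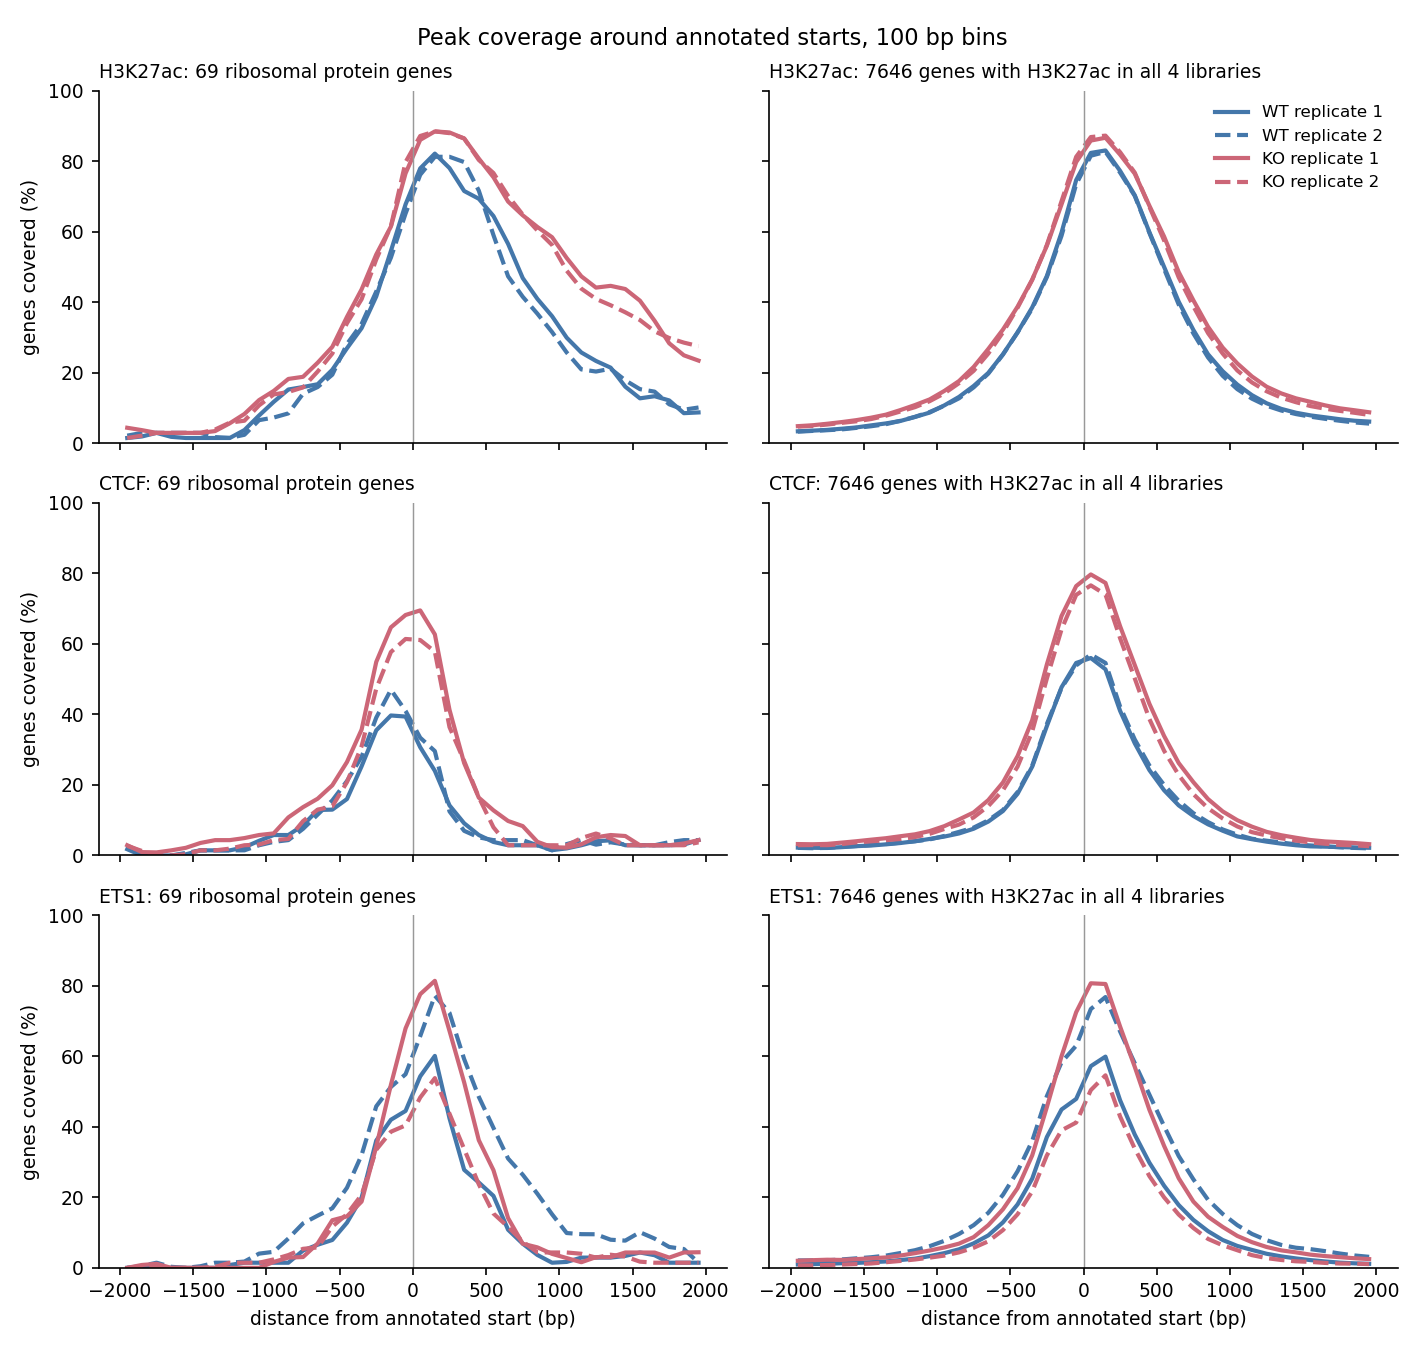
Share of sequence under peaks (%, vertical axis, mean over genes) in bins of 100 bp by distance from the annotated start (bp, positive in the direction of transcription), for 69 ribosomal protein genes (left) and 7646 genes with H3K27ac in all 4 libraries (right); solid and dashed lines are the 2 libraries of WT (blue) and KO (red). The H3K27ac curves of the members part after the start (29.9% and 25.7% against 52.5% and 48.9% at 1000 bp), while in the ETS1 panels the 2 libraries of a genotype lie apart.

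ETS1 peaks were found at most members. Both WT libraries had a peak at 68 of 89 members (76.4%), against 37.7% of all genes. Among the 80 acetylated members the number was 66 (82.5%), against 79.3% of acetylated genes. All 4 libraries had one at 59 members (66.3%), against 30.7% of all genes. Every acetylated member had an ETS1 peak in at least 1 library. Only 1.51% of acetylated genes had none, so the members lay near that background. By role, both WT libraries had a peak at 24 of 31 small subunit genes (77.4%), 38 of 43 large subunit genes (88.4%), 2 of 3 stalk genes and 4 of 12 paralogs and others. The peaks were close to the start: their midpoints were within 250 bp of it at 71.2% and 54.1% of the members with a peak in WT, and at 74.2% and 66.0% in KO. Acetylated genes had 63.3% and 58.4% in WT and 67.3% and 63.3% in KO, so this closeness was not particular to the members.

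By the lowest of its 4 percentiles, the best-ranked ETS1 site among the members was that of Rplp2, whose best peak reached at least the percentile 99.5 of its library's list in all 4 libraries. Rplp2 was covered for 0.867 and 0.919 kb in the WT lists and 0.898 and 0.926 kb in the KO lists, the most even values of the highly ranked members. High by the same measure were also Rps14 (96.9), which ranked above Rplp2 in the second library of each genotype, Rpl30 (96.7), Rpl7 (95.0), Rpl4 (92.0), Rps23 (90.5) and Rpl13a (88.7). The ranking uses the authors' −log10 q per peak within a list, then −log10 p. In contrast, Rplp1, the stalk partner of Rplp2, had an ETS1 peak in the first KO library only, of 0.485 kb.

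Between genotypes ETS1 gave few separations. Of 84 members with a peak, 12 (14.3%) were higher in WT and 8 (9.52%) in KO, against 9.94% and 5.35% of all genes, and 13.0% and 6.53% of acetylated genes. The median log2 ratio was -0.11 for the members and 0.03 for all genes. These counts depended on single libraries. Without the first WT library 47 members (56.0%) were higher in WT, against 39.7% of all genes, and without the first KO library 40 (49.4%) were, against 44.8%. Without the second WT library 29 members (34.9%) were higher in KO, against 24.6% of all genes, and without the second KO library 32 (38.1%) were, against 52.7%. The median log2 ratio was 0.24 without the second WT library and 0.10 without the second KO library, so its direction was not held either.

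Rpl13a, a protein released from the ribosome in interferon-treated cells, had the largest WT excess of ETS1, with 3.37 and 3.75 kb in the WT lists and 1.52 and 1.30 kb in the KO lists (0.398-fold). Another gene end lies in its window, so these peaks cannot be assigned to Rpl13a alone. Rpl34 had 0.835 and 1.29 kb against 0.604 and 0 kb, and Rps3, which also has a role in DNA repair, had 0.760 and 1.24 kb against 0.309 and 0.280 kb. The largest KO excess was at Rps24, with 0.278 and 0.376 kb in the WT lists and 0.582 and 1.53 kb in the KO lists. At each of these genes the genotypes did not overlap, although the 2 KO values at Rps24 differed by more than the WT and the lower KO value did.

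The smaller separations of ETS1 were of both directions. Rps9 had 0.980 and 1.39 kb against 0.709 and 0.453 kb (0.489-fold), Rps25 had 0.955 and 1.23 kb against 0.808 and 0.706 kb (0.693-fold), and Rps7 had 0.913 and 0.909 kb against 0.782 and 0.563 kb (0.738-fold), WT given first. At Rpl30 the nearest values of the genotypes, 0.728 kb in WT and 0.726 kb in KO, were almost equal. Rpl10, Rpl23a, Rpl5 and Rps27a were also higher in WT. On the KO side, Rpl29 had 0 and 0.205 kb in the WT lists and 0.614 and 0.399 kb in the KO lists. Rpl22, Rpl24, Rpl35a and Rpl22l1 were higher in KO by 1.22-fold, 1.34-fold, 1.35-fold and 1.40-fold. These 4 differences depended on the window or the list length: at Rpl22l1 and Rpl24 the direction turned with lists of equal length (log2 -0.23 and -0.36), at Rpl24 also with a flank of 5 kb (-0.09), and the log2 ratio was 0.00 at Rpl35a with a flank of 5 kb and at Rpl22 with a flank of 1 kb. By role, 6 genes of the small and 6 of the large subunit were higher in WT, and 3 and 4 in KO with 1 paralog.

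Both WT libraries had a CTCF peak at 58 of 89 members (65.2%), against 43.4% of all genes. Among the 80 acetylated members the number was 57 (71.2%), against 76.0% of acetylated genes, and the difference was not tested. A peak in all 4 libraries was found at 57 members (64.0%), against 43.0% of all genes. In the first 100 bp after the start, CTCF peaks covered 30.7% and 33.4% of the members' sequence in WT and 69.5% and 61.1% in KO, where the acetylated genes had 56.0% and 57.0% in WT and 79.7% and 76.6% in KO. Relative to the start, the median midpoint was at -109 and -136 bp in WT and at -31 and -42 bp in KO. These medians rest on different members with a peak, 36 and 44 in WT and 57 in each KO library. The part of the added members in the difference was not tested. Acetylated genes had medians of 33 and 38 bp in WT and 63 and 59 bp in KO. The only acetylated member with no CTCF peak in any library was Rpl9.

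Of 83 members with a CTCF peak, 52 (62.7%) were higher in KO and 1 (1.20%) in WT, against 56.7% and 2.54% of all genes and 63.5% and 1.63% of acetylated genes. The members' share thus lay near the background. Their median log2 ratio was 0.66, against 0.44 for all genes and 0.45 for acetylated genes. With lists of equal length, 41 of 76 members (53.9%) were higher in KO and the median was 0.45, against 48.0% and 0.30 for all genes. The largest excess was at Rps3a1, with 0.609 and 0.395 kb in the WT lists and 2.44 and 0.983 kb in the KO lists (3.40-fold). Rpl7a had 0 and 0.456 kb against 1.65 and 0.905 kb, and Rpl10, near the P site, had 0.686 and 0.367 kb against 1.49 and 1.31 kb (2.65-fold). Rpl37a had 0.177 and 0.166 kb against 0.999 and 0.656 kb, but a log2 ratio of -1.44 with lists of equal length. Rps15 had 0.517 and 0.704 kb against 1.46 and 1.23 kb (2.20-fold). Rpl7l1, Rpl13 and Rps10 were 1.61-fold, 1.66-fold and 2.35-fold higher in KO. In 10 members, among them Rpl17, Rpl21, Rpl39, Rplp2, Rps3, Rps12 and Rps28, both KO libraries but neither WT library had a CTCF peak. These were 10 of the 83 members with a CTCF peak, against 7.42% of all such genes, and 8 of 79 (10.1%) among acetylated members against 6.91% of acetylated genes. By percentile in the KO lists, the best peaks of the 10 members ranged from Rps12 (2.02 and 0.0661) to Rpl3l (72.9 and 79.5). Rpl17 (6.84 and 3.80) and Rps28 (8.71 and 9.43) were also low, and Rplp2 was near the middle (46.3 and 59.2). At Rplp2 the KO peaks were 0.610 and 0.457 kb long, and no member showed the opposite pattern, which 0.154% of all genes did. Rpl27a was the 1 gene higher in WT, with 1.25 and 1.22 kb against 0.781 and 0.646 kb (0.576-fold). The best-ranked CTCF peaks were at Rpl4 (percentile 97.9 or more in all 4 libraries), Rps14 (95.7), Rpl32 (93.8) and Rplp0 (92.8). Rpl4 and Rps14 thus had high ranks for both ETS1 and CTCF. In all, 40 members (44.9%) were higher in KO for both H3K27ac and CTCF, against 15.5% of all genes and 33.6% of acetylated genes.

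**Figure D3:**
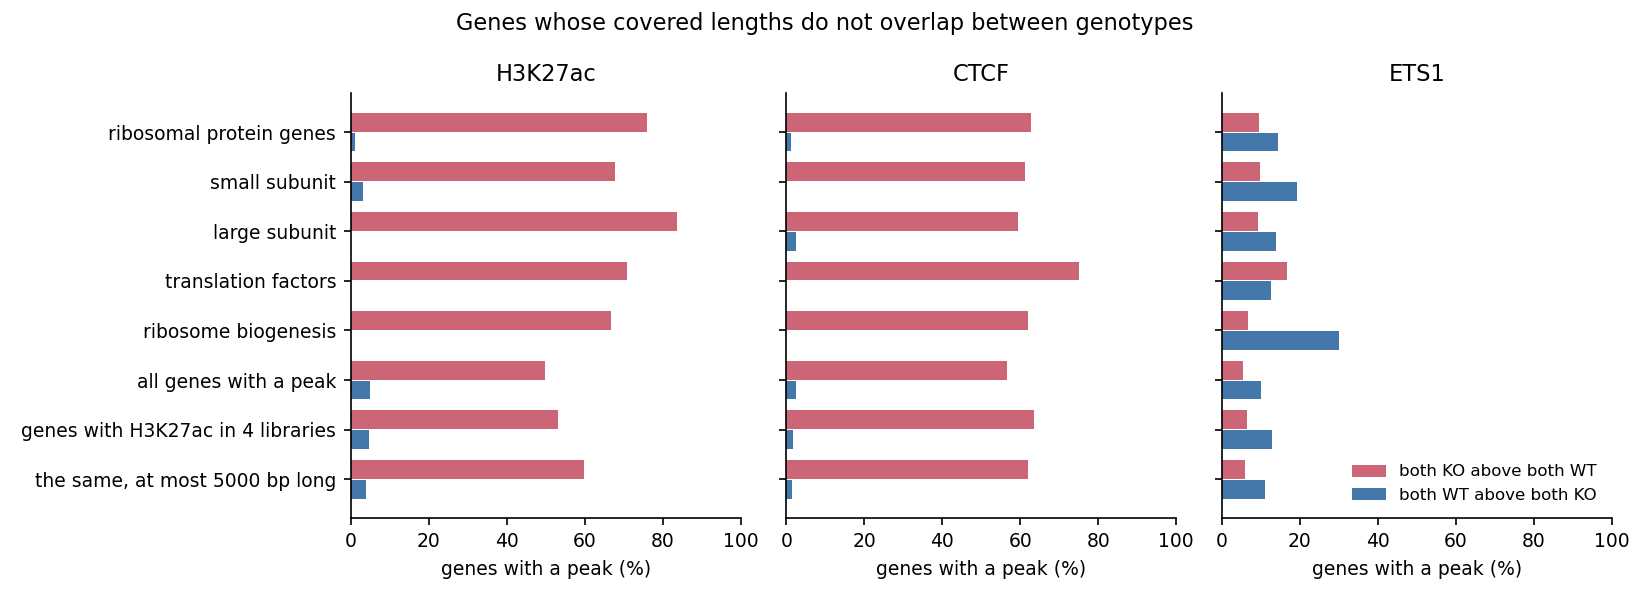
Share of genes with a peak (%, horizontal axis) whose covered length was higher in both KO libraries (red) or in both WT libraries (blue), for the ribosomal protein genes, their subunits, other translation lists and 3 backgrounds. For H3K27ac the members reach 75.9% against 49.7% of all genes; for CTCF they reach 62.7% against 56.7%; for ETS1 both shares are small.

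Other genes of translation were read in the same way. Among the ribosomal partners with other names, Rack1, a scaffold on the small subunit, was higher in KO for H3K27ac, with 1.42 and 0.999 kb in the WT lists and 4.48 and 4.09 kb in the KO lists. Of 24 translation factors, 17 (70.8%) were higher in KO and none in WT (median log2 0.30). Among them, the elongation factor gene Eef2 had 1.94 and 1.50 kb against 2.83 and 3.30 kb. Of 30 ribosome biogenesis genes, 20 (66.7%) were higher in KO and none in WT (median log2 0.49). Of the 10 S6 kinase genes left out by the rule, 7 had a peak and 4 were higher in KO. A share above the 49.7% of all genes was therefore not particular to the ribosomal proteins. For ETS1, 9 of the 30 biogenesis genes were higher in WT and 2 in KO, against 12 and 8 of 84 ribosomal protein genes, and the difference was not tested.

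The promoters of the members held particular letters more often than other promoters did. A promoter of 300 bases, 250 before and 50 after the start, was in the RefSeq table for 69 members, 17492 genes in all and 7646 acetylated genes. Motifs were searched on both strands except TATAAA, in the 60 bases before the start, and the pyrimidine run, both read in the direction of transcription. The 7-letter ETS core CCGGAAG was in 25 member promoters (36.2%), 11.9% of all and 1681 of 7646 acetylated ones. The 6-letter core CGGAAG, which every 7-letter match also holds, was in 44 (63.8%), 21.5% and 37.1%. The ZBTB33 motif TCTCGCGA was in 10 (14.5%), 1.53% and 2.84%. A run of at least 6 pyrimidines within 10 bases of the start was found in 33 (47.8%), 20.7% and 20.3%. These 4 had the largest ratios of the members' share to that of acetylated genes.

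Other motifs were at shares nearer to those of acetylated genes. The YY1 motif AAGATGGC was in 8.70% of member promoters against 5.55% of acetylated ones, the NRF1 motif GCGCATG in 10.1% against 8.12%, and the GC box GGGCGGGG in 30.4% against 34.9%. A CTCF core (AGGTGGC or AGGGGGC) was in 15.9% against 21.8%. TATAAA was in 1 member promoter (1.45%), that of Rpl22l1, against 1.12%. Over all genes these shares were 3.21%, 4.88%, 23.8%, 17.9% and 3.78%. The median GC content of the member promoters was 57.0%, below the 61.3% of acetylated ones, and the part of base composition in these shares was not tested.

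ETS1 peaks were set beside the ETS core. Both WT libraries had an ETS1 peak over the 300 bases at 18 of 25 member promoters with the 7-letter core (72.0%) and at 19 of 44 without it (43.2%). Among the promoters of acetylated members the numbers were 17 of 23 (73.9%) and 19 of 38, against 71.0% and 57.6% for acetylated genes. A higher share with the letters was not particular to the ETS core. With and without the GC box, acetylated members had 66.7% and 55.0%, against 67.0% and 57.1% for acetylated genes. For the YY1 motif they had 66.7% (4 of 6) and 58.2%, against 73.6% and 59.8%. Of the 30 ETS cores of 7 letters in member promoters, 14 (46.7%) were in the 100 bases before the start, against 53.6% of those of acetylated genes. For CTCF, 4 of 11 member promoters with a CTCF core (36.4%) and 27 of 58 without it (46.6%) had a peak in both WT libraries. Among acetylated members these were 4 of 9 (44.4%) and 27 of 52 (51.9%), against 69.2% and 56.1% of acetylated genes. A match is a string of letters and does not show a bound site.

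**Figure D4:**
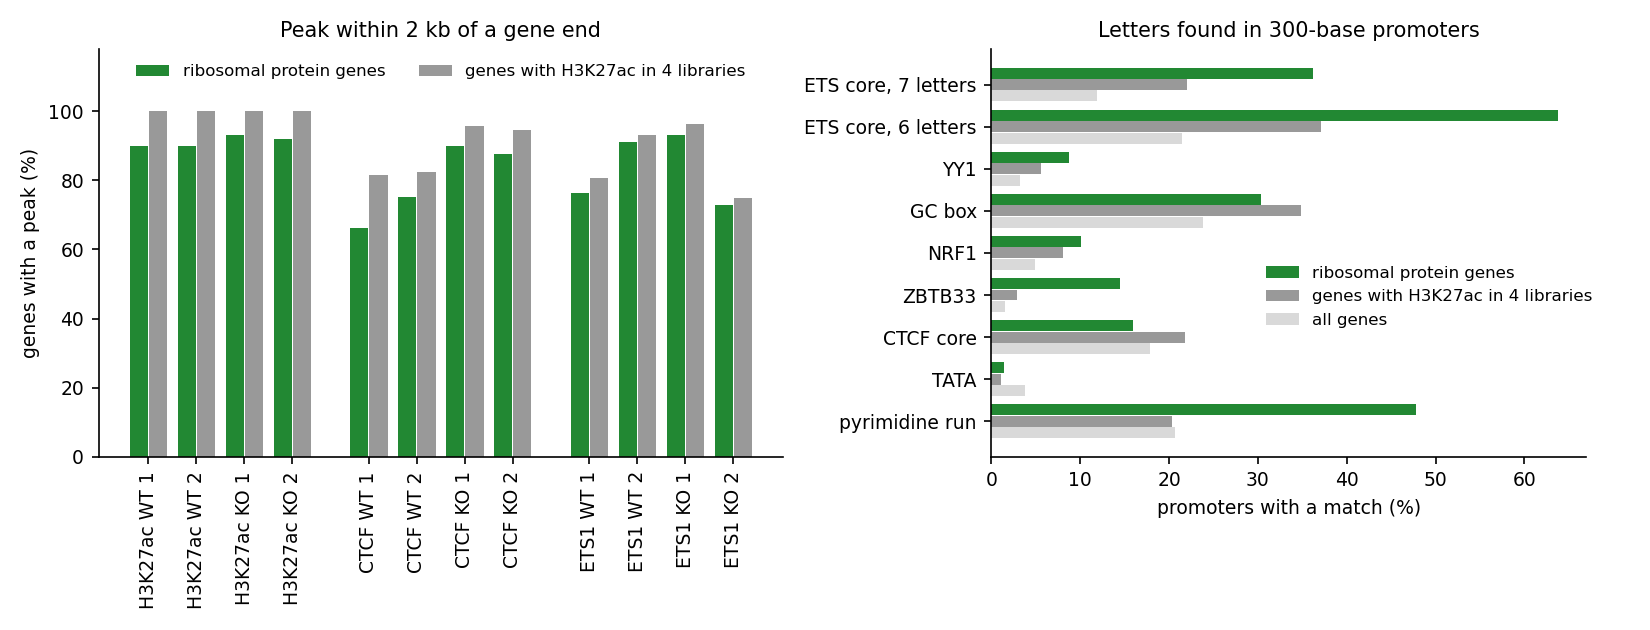
Left, share of genes (%, vertical axis) with a peak within 2 kb of a gene end in each of the 12 libraries; right, share of 300-base promoters (%, horizontal axis) that hold each motif, for ribosomal protein genes (green), genes with H3K27ac in all 4 libraries (dark grey) and, on the right, all genes (light grey). All 89 members are shown on the left, 80 of them acetylated in all 4 libraries; on the right the members' shares for the ETS core, ZBTB33 motif and pyrimidine run are 36.2%, 14.5% and 47.8%, against 22%, 2.84% and 20.3% of acetylated genes.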

How the data were processed

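Peak lists of 14 CUT&RUN libraries were used. The alignment used BWA and the build GRCm38 (per the submitters' processing notes), on reads sequenced as pairs of 38 or 61 bp, per the labels' protocols. Peak names inside the deposited files carry MACS2 naming. Versions, options, control use and treatment of duplicates and of reads that match several places were not given in the sources used here. This last point bears on the ribosomal protein genes, which have 318 annotated pseudogenes. Each deposited list gives, per peak, a score, an enrichment ratio (fold), −log10 p and −log10 q, all made by the authors' peak caller. The deposited score is 10 times −log10 q within 1. The lists hold no counts, so depth is unknown.

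Genes came from RefSeq (GRCm38.p6, chromosomes 1 to 19, X and Y). After the data were examined, 108 entries with scaffold positions were left out, recognised by a start in the first 3 Mb of a chromosome other than Y. Covered length is the sequence under peaks within 2 kb of either gene end, with an overlap of at least 1 bp. Log2 ratios add 0.1 kb. Percentiles rank a peak within its list by −log10 q, then −log10 p. A gene is named by the 8 largest non-overlapping differences in each direction per antibody, the 8 best ranks for ETS1 and CTCF, absence of H3K27ac, or an IgG peak. Further genes (Rps28, Rpl41, Rpl3, Rpl39, Rpl10a, Rpl22, Rplp1, Rps19bp1, Rpl9, Rpl3l, Rpl23a and Eef2, and the members listed as at least 2-fold, overlapping or without a WT peak) were chosen after their values were seen. A few members and partners are not reported here by name. Members, lists and motifs were chosen with earlier results of these data known, and 3 members were placed among the paralogs after the gene table was read. Alternatives were flanks of 1 and 5 kb, starts only, lists of equal length, 0.5 kb added, and each library left out. Python 3.11.15, numpy 2.4.6 and pandas 2.3.3 were used, and the covered-length code was tested on simulated data.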

Additional observations from a re-analysis of the deposited data

Results flagged for a closer look

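The IgG libraries, which show where the nuclease cuts without a specific antibody, were not part of the comparisons. In the KO IgG list, 2 ribosomal protein genes had a peak, Rpl7 and Rpl13a, and in the WT IgG list none did. The WT list holds 2 peaks and the KO list 285, so the lists differ in length and a missing WT peak says little. The share of members, 2.25%, is beside 0.886% of all genes and 1.97% of acetylated genes. At Rpl7 the peak was at chr1:16104193-16104948 (756 bp) and at Rpl13a at chr7:45129127-45129302 (176 bp), with the authors' fold values of 4.56 and 4.72. The IgG peak at Rpl13a lay wholly under peaks of H3K27ac, CTCF and ETS1 in all 12 libraries. That at Rpl7 lay wholly under peaks in all of them except the first CTCF WT library, where 195 bp were covered. Without these genes, 62 of 81 members were higher in KO for H3K27ac and 11 of 82 higher in WT for ETS1. The part of nonspecific cutting in the peaks at these genes was not tested.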

How the results depend on the processing

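No paired analysis was possible because the shared replicate numbers name technical replicates of 1 biological replicate in WT and separate biological replicates in KO. Under the settings listed at the outset, 82 values stayed within 1.5 times or 1 SD and 21 moved further. The H3K27ac count of members higher in KO was 51 to 73 under all alternatives, with different numbers of members measured. The lowest was 51 of 62 with starts only (82.3%, against 50.3% of all genes). The highest was 73 of 83 without the second KO library (88.0%, against 64.6%). The count higher in WT was 0 with a flank of 1 kb and 0 with starts only, and ranged from 1 to 4 when a library was left out. Over all genes these shares were 4.49%, 4.24% and 10.3% to 13.3%. The H3K27ac median log2 ratio was 0.33 with a flank of 1 kb and 0.37 with 0.5 kb added. For CTCF, 6 of 76 members (7.89%, against 4.19% of all genes) were higher in WT with lists of equal length. When a library was left out, 3 to 6 were (3.61% to 7.23%, against 4.46% to 10.6%). The CTCF median was 0.45 with lists of equal length and 0.37 with 0.5 kb added, and 34 members had CTCF in every library when starts only were used, for which fewer members could be measured. For ETS1, 5 of 86 members (5.81%, against 4.88% of all genes) were higher in KO with a flank of 5 kb. With a library left out, 9 to 32 were higher in KO (10.7% to 38.1%, against 7.59% to 52.7% of all genes). In WT 13 to 47 were higher (15.7% to 56.0%, against 12.5% to 44.8%). The 6-letter ETS core was in 44 member promoters. Of the named genes, Rps14 had a log2 H3K27ac ratio of 0.01 with a flank of 1 kb, and Rpl37a a CTCF ratio of -1.44 with lists of equal length. Rpl22l1 had an ETS1 ratio of -0.23 and Rpl24 of -0.36 with lists of equal length. With a flank of 5 kb these were -0.09 for Rpl24 and 0.00 for Rpl35a. The cause of these changes was not tested. Unknown depth, 2 libraries per group and WT libraries from 1 biological replicate limit each comparison.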

Other observations

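Ribosomal protein genes have many processed pseudogenes. None of the 318 annotated pseudogenes of the family had an H3K27ac peak over its body in any library, against 2.24% of 10291 other pseudogenes in at least 1 library. For CTCF, 2 family pseudogenes (0.629%) had a peak in at least 1 library and for ETS1 7 (2.20%), against 3.28% and 5.06% of other pseudogenes. The treatment of reads that match several places is unknown, and its part in these shares was not tested. The members' own bodies had H3K27ac, CTCF and ETS1 peaks in at least 1 library at 92.1%, 85.4% and 93.3%. The most pseudogenes were named after Rpl31 and Rps12, with 23 each, and both genes had H3K27ac in all 4 libraries.

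Many members host small nucleolar RNAs, the guides of rRNA modification, in their introns. Within their bounds, 30 of 89 members (33.7%) held 59 annotated snoRNAs, against 1.69% of all genes, 33.3% of 24 translation factors and 6 of 30 ribosome biogenesis genes. Rpl4 held the most, 5, and Rpl7a and Rpl13a held 4 each. Of the 30 hosts, 25 (83.3%) were higher in KO for H3K27ac, Rpl4, Rpl7a and Rpl13a among them. This is beside 75.9% of all members with a peak, which include the hosts, and 49.7% of all genes with a peak. The difference was not tested, and snoRNA hosts outside the members were not measured as a group.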
